A study of Mus musculus with 16 samples.

Results

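The genes described here are 10 genes of blood vessels and vessel growth, Pecam1, Emcn, Kdr, Flt1, Tek, Tie1, Sele, Icam1, Vegfa and Angpt2. They were chosen by symbol (PECAM1, EMCN, KDR, FLT1, TEK, TIE1, SELE, ICAM1, VEGFA and ANGPT2 in the deposited table), and each had 1 of the 18132 rows of the intensity table, so that all 10 were measured and none was removed by a filter. Kidney RNA was measured on 16 Illumina MouseRef-8 v2 BeadChips, 1 array per kidney. The groups were 2 control and 7 UUO kidneys of wild type (WT) mice, and 2 control and 5 UUO kidneys of IL-33-deficient mice, all C57BL/6 mice that were 8 weeks old by default. In unilateral ureteral obstruction (UUO) a clip closes the ureter of the left kidney, and these kidneys were taken 24 h later. The IL-33-deficient mice carried the deletion throughout the body (IL-33-/-) and had been backcrossed to the C57BL/6J BomTac strain. The control label does not say whether these mice were sham-operated or untouched. The labels assign the UUO kidneys to a first set (WT 3, IL-33-deficient 2) or a second set (WT 4, IL-33-deficient 3), called set 1 and set 2 here, and give no set for the control mice. Each array is named by the number in its label.

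Endothelial cells line the glomerular capillaries, the peritubular capillaries and the larger vessels of the kidney. Vegfa, made in the kidney largely by podocytes and tubule cells, acts through its receptors Kdr (VEGF receptor-2) and Flt1 (VEGF receptor-1, which binds the ligand tightly and signals weakly), while angiopoietins act through the receptor Tek (TIE2) with its partner Tie1. Endothelial cells in inflamed tissue display E-selectin (Sele) and Icam1, which slow and hold leukocytes, and both genes are textbook targets of NF-kB.

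Promoter sequence was in hand for 8 of the 10 genes, all except Pecam1 and Angpt2, in 9 windows of 250 bases upstream of a RefSeq transcript start on GRCm38.p6. The windows of the 2 adhesion molecules are shown because both hold a site of the kind NF-kB binds, although Icam1 and Sele did not behave alike in these kidneys, and that of Vegfa because its intensity fell in both genotypes. The letters GGANNTTCC were searched on both strands, and were settled on after these sequences had been read. Capitals mark that match in Icam1 and Sele, and the GC box GGGCGG in Vegfa. The windows are given 5′ to 3′ on the strand of the gene, which is the plus strand for Icam1 (chr9:21015690-21015939) and Sele (chr1:164047984-164048233) and the minus strand for Vegfa (chr17:46032378-46032627).
Icam1: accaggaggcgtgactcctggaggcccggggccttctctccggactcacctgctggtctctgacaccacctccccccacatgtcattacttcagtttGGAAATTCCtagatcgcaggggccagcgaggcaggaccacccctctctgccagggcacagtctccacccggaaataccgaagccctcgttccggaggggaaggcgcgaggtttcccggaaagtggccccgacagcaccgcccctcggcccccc
Sele: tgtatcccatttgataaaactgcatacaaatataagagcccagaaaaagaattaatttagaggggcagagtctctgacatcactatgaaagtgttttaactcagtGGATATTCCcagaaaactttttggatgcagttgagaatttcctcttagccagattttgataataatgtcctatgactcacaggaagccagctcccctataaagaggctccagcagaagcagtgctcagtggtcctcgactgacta
Vegfa: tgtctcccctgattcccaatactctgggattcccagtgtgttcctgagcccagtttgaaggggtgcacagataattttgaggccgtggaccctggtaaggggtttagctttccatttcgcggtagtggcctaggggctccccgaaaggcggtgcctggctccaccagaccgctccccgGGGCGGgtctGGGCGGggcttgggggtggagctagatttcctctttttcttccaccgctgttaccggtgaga

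The first base of the match lay 153 bases upstream of the start in Icam1 and 145 bases upstream in Sele, and no window of the 6 other genes held these letters. Across the 32851 promoters of the table, 3.59% of windows of this length held them. The GC box was found in the windows of 4 of the 8 genes, Kdr, Flt1, Icam1 and Vegfa, against 32.7% of all promoters. Such a match describes letters only, not binding.

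Values below are log2 of quantile-normalized intensity, in which a difference of 1 is a doubling, and each fold change, standard error (SE) and adjusted p comes from limma, with the adjustment over all 18132 rows. A gene is called changed at an adjusted p under 0.05. All 1075 odorant receptor genes, which a kidney hardly uses, served as a guide to background, and 95 percent of them lay under a log2 intensity of 7.00. Intensities near that guide understate fold changes. In the deposited table the arrays had median intensities between 132 and 133. How they had been normalized before is not known, so these medians do not show the depth of the raw signal. Il33 stood at 7.62 and 8.02 in the WT controls, between 8.39 and 9.57 in the WT UUO kidneys, and between 6.80 and 7.02, at or close to background, in all 7 IL-33-deficient kidneys, as their labels say. WT UUO replicate 3820 stood near the controls for Vegfa, and without it the same numbers of the 10 genes, 4 in WT and 6 in IL-33-deficient kidneys, were called after UUO. Because whole kidney was measured, fewer cells of a type and less RNA per cell cannot be told apart.

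After 24 h of UUO, 4 of the 10 genes were called in WT kidneys, Icam1 higher and Flt1, Vegfa and Angpt2 lower, against 15.2% of all rows called in that comparison (6.97% higher and 8.22% lower). In IL-33-deficient kidneys the same 4 genes were called in the same directions, with Tek and Tie1 lower as well, so that 6 of 10 were called against 21.8% of all rows (10.6% higher and 11.2% lower). The median log2 fold change over the 10 genes was -0.15 in WT and -0.20 in IL-33-deficient kidneys, and that over all rows was -0.00076 and -0.00057. Pecam1, Emcn, Kdr and Sele passed the test in neither genotype. The 2 comparisons share no array, although they share 1 estimate of the spread.

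**Figure D1:**
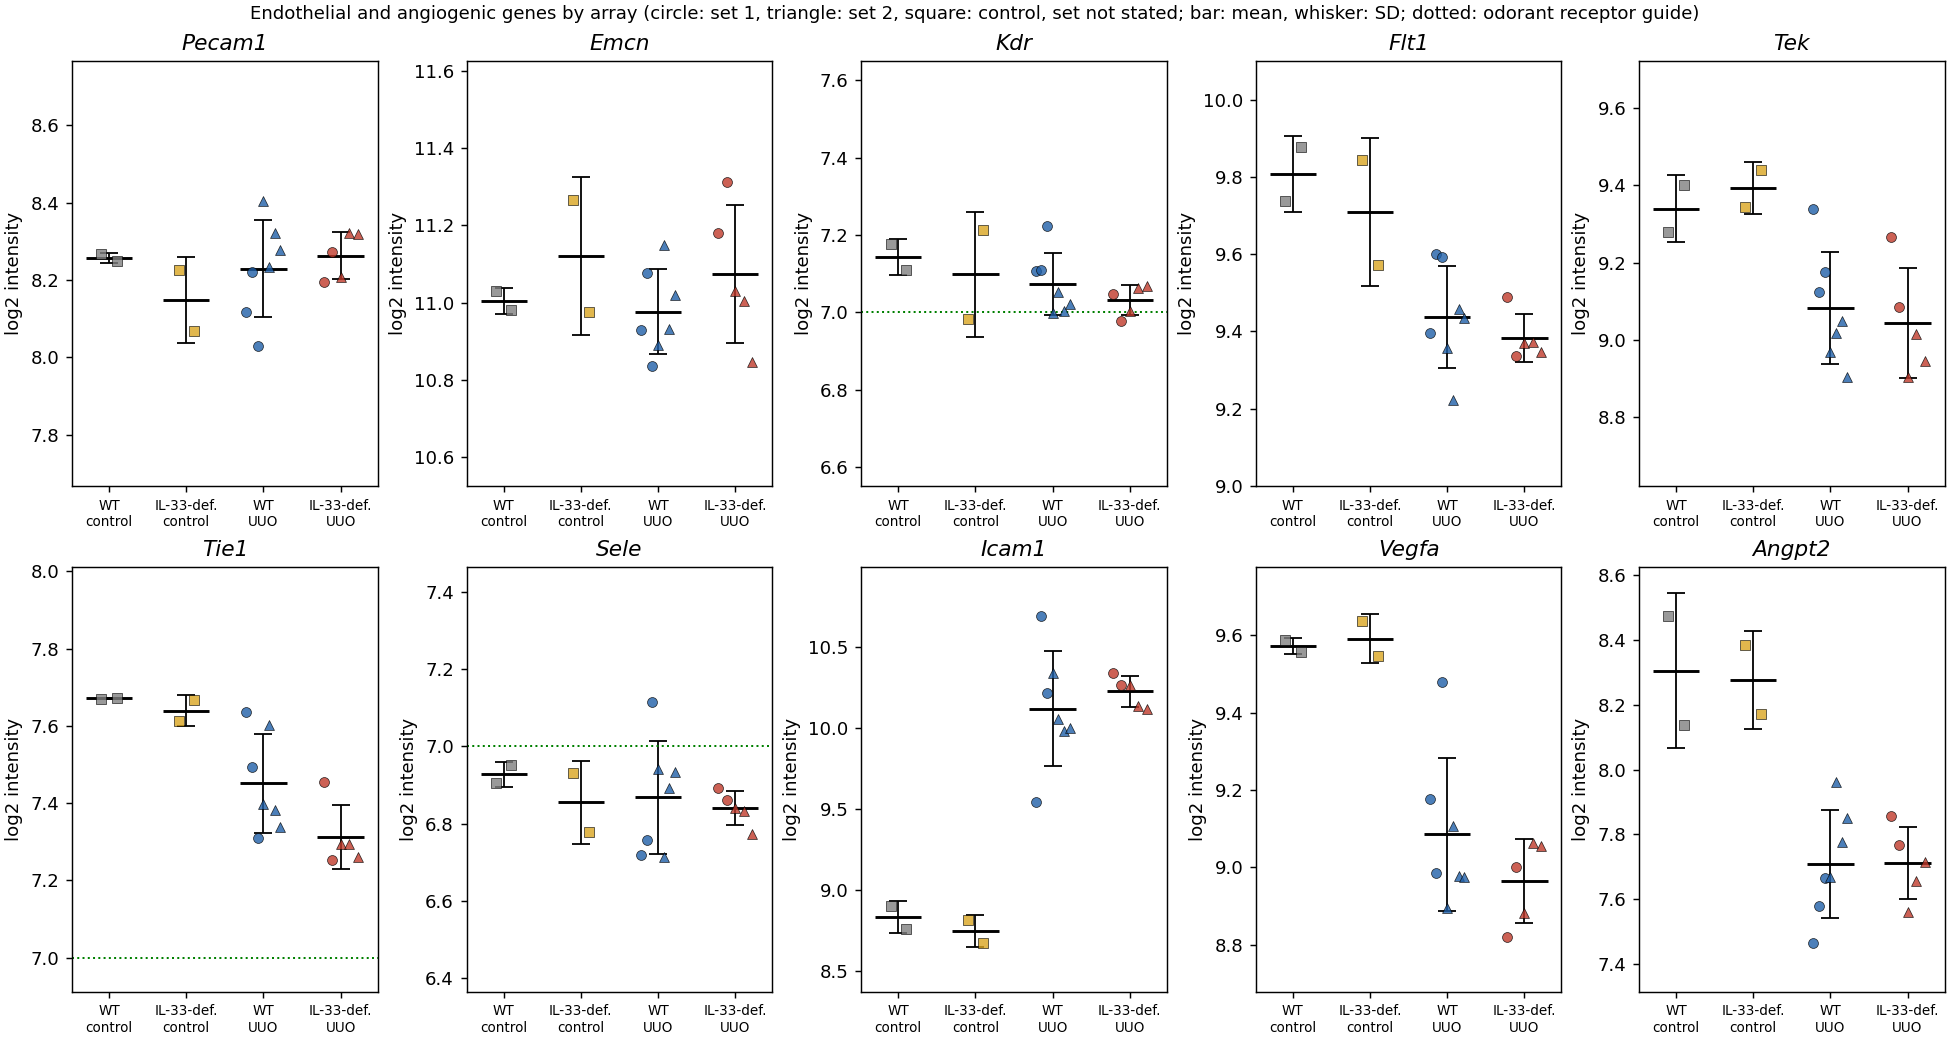
Log2 intensity (vertical axis) of each gene in the 4 groups, with 1 symbol per kidney (circles set 1, triangles set 2, squares controls), the mean as a bar, the SD as whiskers and the background guide of 7.00 as a dotted line where it falls within the panel. The 12 UUO kidneys lie above the 4 controls for Icam1 and below them for Vegfa and Angpt2, while Pecam1, Emcn, Kdr and Sele overlap between the groups.

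Pecam1 (chr11:106654213-106715281), the junctional adhesion protein CD31 that marks endothelial cells and platelets, read 8.27 and 8.25 in the WT controls and from 8.03 to 8.40 with a median of 8.23 in the WT UUO kidneys. It read 8.23 and 8.07 in the IL-33-deficient controls and 8.19, 8.27, 8.21, 8.32 and 8.32 in the IL-33-deficient UUO kidneys. Control and UUO kidneys overlapped in both genotypes. The log2 fold change was -0.03 in WT (SE 0.08, adjusted p = 0.886) and 0.11 in IL-33-deficient kidneys (SE 0.08, adjusted p = 0.393). The 95% confidence intervals ran from -0.19 to 0.14 and from -0.06 to 0.29, so that a modest rise in IL-33-deficient kidneys could have been missed.

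Emcn (chr3:137341062-137431069), a sialomucin of capillary and venous endothelium, was bright in every kidney. It read 11.03 and 10.98 in the WT controls, 11.27 and 10.98 in the IL-33-deficient controls, and from 10.84 to 11.15 with a median of 10.93 in the WT UUO kidneys. The IL-33-deficient UUO kidneys read 11.18, 11.31, 11.03, 11.00 and 10.85, and these span the range of the controls. UUO minus control gave -0.03 in WT and -0.05 in IL-33-deficient kidneys (SE 0.11 in both; adjusted p = 0.921 and 0.853). The marker levels of CD31 and endomucin therefore did not pass the test, with intervals for Emcn from -0.25 to 0.20 and from -0.28 to 0.19.

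Kdr (chr5:75932827-75979072) was measured close to background, with group means between 7.03 and 7.14, so its probe could show little. The WT controls read 7.18 and 7.11 and the WT UUO kidneys from 7.00 to 7.22 with a median of 7.05. Its log2 fold change was -0.07 in each genotype (adjusted p = 0.564 and 0.573), and the groups overlapped.

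Flt1 (chr5:147561604-147726438) fell in both genotypes. It read 9.74 and 9.88 in the WT controls and from 9.22 to 9.60 with a median of 9.43 in the WT UUO kidneys. The IL-33-deficient controls read 9.84 and 9.57 and the UUO kidneys 9.49, 9.34, 9.37, 9.37 and 9.35. All 12 UUO kidneys lay below the controls of their own genotype. The log2 fold change was -0.37 in WT (SE 0.09, adjusted p = 0.0113) and -0.33 in IL-33-deficient kidneys (SE 0.09, adjusted p = 0.0194), a level 1.29-fold and 1.25-fold lower. The calls rested on few controls, since without WT control replicate 3812 the adjusted p was 0.186, and without IL-33-deficient control replicate 3813 it was 0.344 at a log2 fold change of -0.19.

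Tek (chr4:94739086-94874976) read 9.28 and 9.40 in the WT controls and 9.35 and 9.44 in the IL-33-deficient controls. The IL-33-deficient UUO kidneys read 9.27, 9.09, 8.90, 9.01 and 8.95, all below their controls, and the fall of 0.35 was called (SE 0.11, adjusted p = 0.0267). The WT UUO kidneys ran from 8.90 to 9.34 with a median of 9.05. Of these, 6 lay below both WT controls, and replicate 3818, the highest, lay between them. The WT log2 fold change of -0.26 (SE 0.10) had an adjusted p of 0.110, which became 0.0286 without replicate 3818. Tek also split by set, since the set 1 UUO kidneys of both genotypes read 9.09 to 9.34 and those of set 2 8.90 to 9.05. In limma fits by set, the WT log2 fold change was -0.13 with set 1 (adjusted p = 0.560) and -0.36 with set 2 (adjusted p = 0.00069). The IL-33-deficient call was lost without control replicate 3813 or 3814 or UUO replicate 3897 or 3899, with adjusted p between 0.0515 and 0.201.

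Tie1 (chr4:118471191-118489849) showed a like pattern at a dimmer level. It read 7.67 in both WT controls and 7.61 and 7.67 in the IL-33-deficient controls. The WT UUO kidneys ran from 7.31 to 7.64 with a median of 7.40, and the IL-33-deficient UUO kidneys read 7.45, 7.25, 7.29, 7.30 and 7.26. All 12 lay below the controls of their genotype. Tie1 changed by -0.33 in IL-33-deficient kidneys (SE 0.08, adjusted p = 0.00897) and -0.22 in WT (SE 0.08, adjusted p = 0.0777), and the WT adjusted p became 0.0240 without replicate 3818 and 0.0459 without replicate 3893. The IL-33-deficient call was lost without control replicate 3813 (adjusted p = 0.0513) or 3814 (adjusted p = 0.0939). With the responses of both genotypes averaged, an analysis added after the values were seen in which 6 of the 10 genes and 28.2% of all rows (13.7% higher and 14.5% lower) were called, Tek fell by 0.30 (SE 0.07, adjusted p = 0.00487) and Tie1 by 0.27 (SE 0.06, adjusted p = 0.00168).

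**Figure D2:**
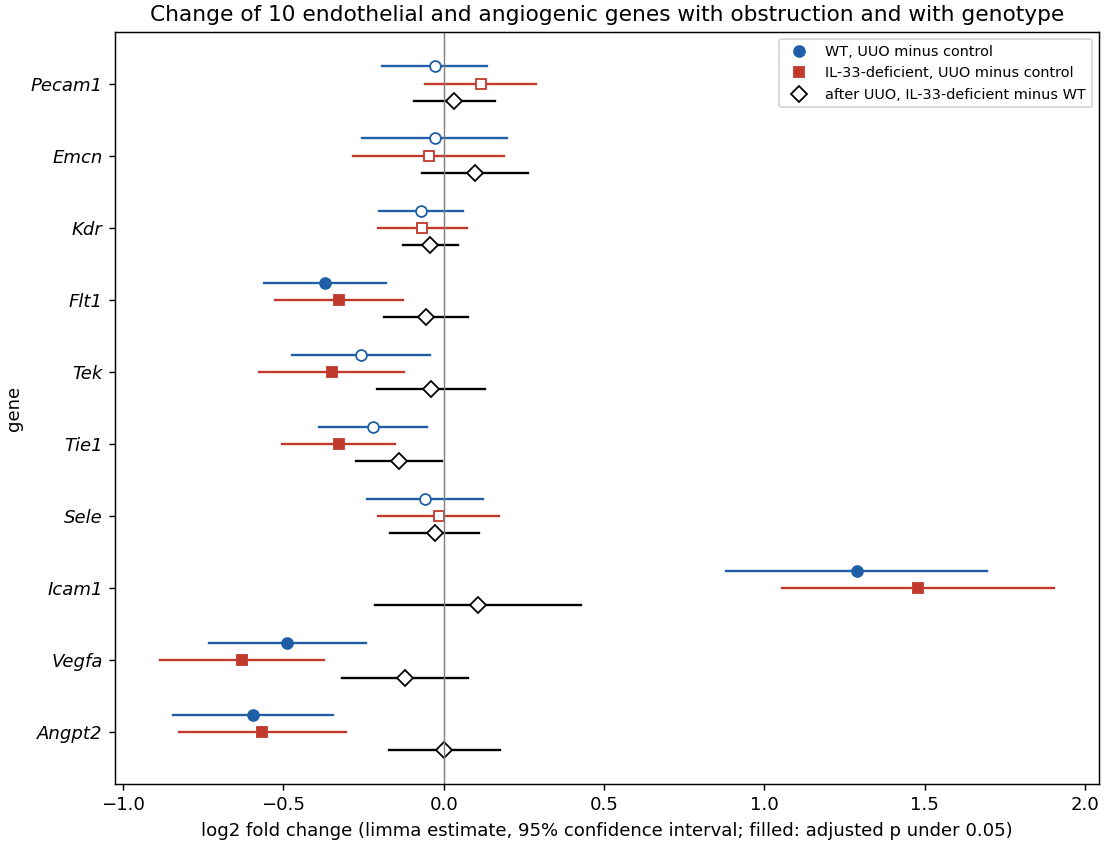
Log2 fold change (horizontal axis) with its 95% confidence interval for each of the 10 genes, for UUO against control in WT (circles) and IL-33-deficient kidneys (squares) and for the genotypes after UUO, IL-33-deficient minus WT (diamonds), with filled symbols at an adjusted p under 0.05. Icam1 stands at 1.29 and 1.48, Flt1, Vegfa and Angpt2 lie below 0 in both genotypes, and no diamond is filled.

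Icam1 (chr9:21015940-21028814), which holds leukocytes through their beta-2 integrins and can also be displayed by tubule cells and leukocytes, was the one gene of the 10 that rose. It read 8.90 and 8.76 in the WT controls, and 9.54, 10.06 and 10.69 as the lowest, median and highest of the WT UUO kidneys. It read 8.82 and 8.68 in the IL-33-deficient controls and 10.34, 10.27, 10.27, 10.14 and 10.12 in the UUO kidneys. Every UUO kidney lay above every control. The log2 fold change was 1.29 in WT (SE 0.19, adjusted p = 0.000602) and 1.48 in IL-33-deficient kidneys (SE 0.20, adjusted p = 0.000112), a level 2.44-fold and 2.79-fold higher. The call held without any single array, at log2 fold changes between 1.19 and 1.55. With only the 3 set 1 kidneys, the WT log2 fold change was 1.32 and its adjusted p 0.0790.

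Sele (chr1:164039614-164058487), which slows rolling leukocytes, was under the background guide on average in all 4 groups. The WT controls read 6.90 and 6.95, the IL-33-deficient controls 6.93 and 6.78, and the 12 UUO kidneys ran from 6.71 to 7.11. Only WT UUO replicate 3820 passed the guide. A change of Sele was not detectable at this signal (log2 fold change -0.06 in WT and -0.02 in IL-33-deficient kidneys, adjusted p = 0.762 and 0.946). The 2 adhesion molecules whose promoter windows hold the GGANNTTCC letters thus differed in what could be measured, Icam1 well above background and higher after UUO, Sele at background throughout.

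Vegfa (chr17:46016993-46032377) fell in both genotypes. It read 9.59 and 9.56 in the WT controls, and 8.89, 8.99 and 9.48 as the lowest, median and highest of the WT UUO kidneys. It read 9.64 and 9.55 in the IL-33-deficient controls and 8.82, 9.0, 8.88, 9.06 and 9.05 in the UUO kidneys. All 12 UUO kidneys lay below the 4 controls, with WT replicate 3820, at 9.48, nearest to them. In WT kidneys the log2 fold change was -0.49 (SE 0.11, adjusted p = 0.00989) and -0.63 in IL-33-deficient kidneys (SE 0.12, adjusted p = 0.00143), a level 1.40-fold and 1.55-fold lower. Without replicate 3820 the WT change was -0.55 with an adjusted p of 0.000112, whereas leaving out WT control replicate 3811 or 3812 gave adjusted p of 0.102 and 0.0918.

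Angpt2 (chr8:18690263-18741562), stored in endothelial cells and usually an antagonist of TIE2 signalling, also fell. It read 8.47 and 8.14 in the WT controls, and 7.47, 7.67 and 7.96 as the lowest, median and highest of the WT UUO kidneys. It read 8.38 and 8.17 in the IL-33-deficient controls and 7.86, 7.77, 7.56, 7.66 and 7.72 in the UUO kidneys. No UUO kidney reached a control. The log2 fold change was -0.60 in WT (SE 0.12, adjusted p = 0.00326) and -0.57 in IL-33-deficient kidneys (SE 0.12, adjusted p = 0.00332), a level 1.51-fold and 1.48-fold lower. Without the higher control of each genotype, WT replicate 3811 or IL-33-deficient replicate 3813, the change was -0.43 and -0.46 with adjusted p of 0.108 and 0.0790.

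Receptors, ligands and inhibitors from the same pathways were counted in 8 further lists that together held 83 other genes. In WT kidneys 10 of these were called higher and 8 lower (21.7%, against 15.2% of all rows), and in IL-33-deficient kidneys 18 higher and 11 lower (34.9%, against 21.8% of all rows). In both genotypes 10 rose and 3 fell, or 15.7% of the 83, against 13.0% of all rows (6.15% higher and 6.80% lower). The share of the vessel genes called was thus near or modestly above that of the whole table. The counts of single lists in UUO against control below stand beside the same shares of all rows. These were 6.97% higher and 8.22% lower in WT, and 10.6% higher and 11.2% lower in IL-33-deficient kidneys. The 13 genes called in both were 9 without IL-33-deficient control replicate 3813, but 5 without WT control replicate 3811 and 3 without 3812, when the 2754 of all rows called in WT kidneys were 1051 and 809.

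**Figure D3:**
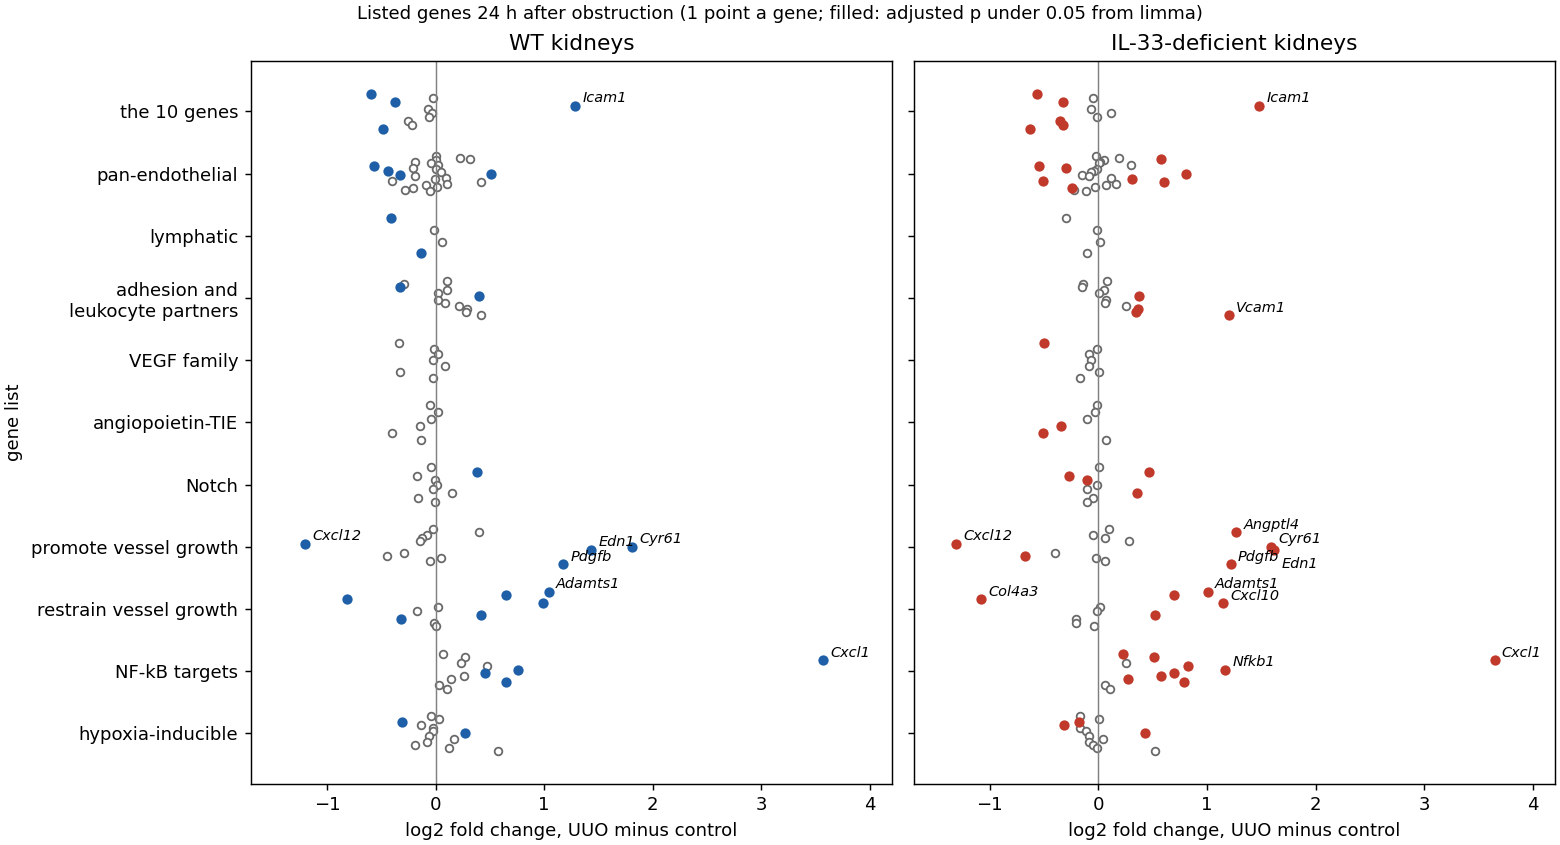
Log2 fold change of UUO against control (horizontal axis) for each gene of 11 lists (rows), in WT and IL-33-deficient kidneys, with 1 point per gene, filled at an adjusted p under 0.05. Most points of the pan-endothelial, VEGF, angiopoietin and Notch rows lie near 0, whereas Edn1, Cyr61, Pdgfb, Cxcl1 and Cxcl12 lie farther out in both panels.

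Of 25 other pan-endothelial markers, 1 was called higher and 3 lower in WT kidneys, and 4 higher and 4 lower in IL-33-deficient kidneys, with median log2 fold changes of -0.0049 and -0.011. The list moved both ways. Gpihbp1, which carries lipoprotein lipase onto the capillary wall, rose in both genotypes, by 0.51 in WT (adjusted p = 0.00497) and 0.81 in IL-33-deficient kidneys (adjusted p = 0.000144). Ehd3, a marker of glomerular endothelium, fell by 0.57 (adjusted p = 0.0010) and by 0.55 (adjusted p = 0.000689). The other calls, named after their values were seen, each came in 1 genotype. Esam and Icam2 fell in WT kidneys. In IL-33-deficient kidneys Plvap of fenestrated capillaries rose by 0.31 (adjusted p = 0.00445) and Ramp2, the co-receptor of adrenomedullin, by 0.61 (adjusted p = 0.00642), Cd93 also rose, and Eng, Sox17 and Ptprb fell. No difference between the genotypes in these responses was called by limma. The summed intensity of the list ran from 9677 to 10530 in the 4 controls and from 9457 to 11099 in the 12 UUO kidneys. Cdh5, the cadherin of endothelial junctions, was dim, at group means between 7.14 and 7.25.

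The counts of the VEGF, angiopoietin, Notch and lymphatic lists stand beside 15.2% of all rows called in WT and 21.8% in IL-33-deficient kidneys. Of 7 VEGF ligands, receptors and co-receptors besides Vegfa, Kdr and Flt1, none was called in WT kidneys by limma, where 2 had an unadjusted p under 0.05, and Figf (VEGF-D) alone, named after its values were seen, was called in IL-33-deficient kidneys, where it fell by 0.50 (adjusted p = 0.0344). Vegfb, which binds Flt1, changed by -0.33 in WT (adjusted p = 0.0844) and 0.00 in IL-33-deficient kidneys (adjusted p = 0.994). Of 6 angiopoietin and TIE pathway genes, none was called in WT kidneys by limma, and 1 had an unadjusted p under 0.05. In IL-33-deficient kidneys 2 fell, Ptprb, the endothelial phosphatase that acts on TIE2, by 0.51 (adjusted p = 0.0211) and Foxo1, a transcription factor held in check by TIE2 signalling, by 0.34 (adjusted p = 0.0213). Angpt1, the activating ligand of TIE2, was dim in all groups. Of 9 Notch genes, Hes1, a Notch target not particular to vessels, rose in both genotypes, by 0.38 in WT (adjusted p = 0.00538) and 0.47 in IL-33-deficient kidneys (adjusted p = 0.000950). In IL-33-deficient kidneys Notch1 rose and Hey1 and the dim Hey2 fell as well. Prox1 and Ccl21a of the 4 lymphatic markers fell in WT kidneys, by 0.14 and 0.41 (adjusted p = 0.0170 and 0.0230), with Prox1 dim in all groups, and none was called in IL-33-deficient kidneys by limma, where 2 had an unadjusted p under 0.05.

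Besides Icam1 and Sele, 12 genes of leukocyte adhesion were counted, of which 1 rose and 1 fell in WT kidneys and 4 rose in IL-33-deficient kidneys, with median log2 fold changes of 0.10 and 0.07. The risers of the IL-33-deficient kidneys were Itgb1, Vcam1, Selp and Selplg. Itgb1, an integrin chain of many cell types, rose in both, by 0.40 (adjusted p = 0.00605) and 0.37 (adjusted p = 0.00724). Vcam1, the endothelial and tubular ligand of leukocyte integrin alpha-4, was named after its values were seen. It rose by 1.20 in IL-33-deficient kidneys (adjusted p = 0.0110) and had a log2 fold change of 0.42 in WT (adjusted p = 0.453), while the genotypes after UUO differed by 0.68 with an adjusted p of 0.356. Selp, the selectin kept in endothelial granules and platelets, rose by 0.37 in IL-33-deficient kidneys (adjusted p = 0.0335) with 0.29 in WT (adjusted p = 0.103). Of 6 platelet and red cell markers, 1 rose in WT kidneys (Ppbp, by 0.26, adjusted p = 0.0436) and 1 fell in IL-33-deficient kidneys (Itga2b, by 0.22, adjusted p = 0.000442), with median log2 fold changes of -0.38 and -0.66. The negative medians reflect the red cell genes, which had the lowest log2 fold changes of this list and were called in neither genotype by limma. These were (WT first) -1.03 and -1.49 for Hba-a1, -0.89 and -1.10 for Hbb-b1, and -0.66 and -1.30 for Alas2. The platelet genes moved less, with 0.26 and 0.20 for Ppbp, 0.05 and 0.01 for Gp9, and -0.09 and -0.22 for Itga2b. Both platelet calls were made near the background guide. Mean Ppbp was 6.87 in WT control and 7.13 in WT UUO kidneys, and mean Itga2b 7.17 and 6.95 in the IL-33-deficient ones. All 6 genes were named after their values were seen, and the part of platelets in the level of Selp was not tested. Icam2, the constitutive endothelial relative of Icam1, fell by 0.33 in WT (adjusted p = 0.0266), with -0.15 in IL-33-deficient kidneys (adjusted p = 0.328).

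Of 12 NF-kB target and feedback genes, 4 rose, none fell and 8 were not called in WT kidneys. In IL-33-deficient kidneys 9 rose, none fell and 3 were not called. Of all rows, 6.97% and 10.6% were called higher in these comparisons. The median log2 fold changes of the list were 0.27 and 0.54. Cxcl1, a neutrophil chemokine, rose by 3.57 in WT and 3.65 in IL-33-deficient kidneys (adjusted p = 5.05e-05 and 2.3e-05). Nfkb1, the p50 subunit precursor, rose by 0.76 and 1.17, and Relb by 0.65 and 0.79. Nfkb2 was also called in both. Markers of leukocytes and of tubule injury were counted beside Icam1. Of 10 leukocyte markers 2 rose, 1 fell and 7 were not called in WT kidneys, and 4 rose, 1 fell and 5 were not called in IL-33-deficient kidneys, with median log2 fold changes of 0.04 and 0.11. Cd68 and S100a8 rose and Csf1r fell in both, and Lyz2 and S100a9 rose in IL-33-deficient kidneys. Their summed intensity was 1625 to 2217 in the controls, 2128 to 4306 in the WT UUO kidneys and 2902 to 4945 in the IL-33-deficient UUO kidneys, while Ptprc (CD45), carried by all leukocytes, was dim in all groups. All 5 tubule injury markers rose in both genotypes, from summed intensities between 5928 and 7525 in the controls to between 22653 and 46311 after UUO. The part of leukocytes and of injured tubules in the level of Icam1 was not tested.

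Among 13 other factors that promote vessel growth, 3 rose and 1 fell in both genotypes, and in IL-33-deficient kidneys Angptl4 rose and Fgf1 fell as well. Cyr61, a matrix-bound integrin ligand, rose by 1.81 in WT and 1.59 in IL-33-deficient kidneys (adjusted p = 0.00286 and 0.00494). Edn1 (endothelin-1, a vasoconstrictor peptide) rose by 1.43 and 1.62 (adjusted p = 0.000686 and 0.000147), and Pdgfb, which recruits pericytes, by 1.17 and 1.22 (adjusted p = 0.00868 and 0.00534). Cxcl12, a chemokine that guides endothelial and blood cells, fell by 1.20 and 1.31 (adjusted p = 0.00289 and 0.00110). Vegfa, Angpt2 and Cxcl12 were therefore lower in the same kidneys in which Edn1, Cyr61 and Pdgfb were higher.

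Among 10 factors that restrain vessel growth, 4 rose and 1 fell in both genotypes. Adamts1, a protease that binds VEGF, rose by 1.04 and 1.01 (adjusted p = 0.00508 and 0.00475), and Cxcl10, an interferon-inducible chemokine, by 0.99 and 1.14 (adjusted p = 0.00728 and 0.00198). Col18a1, whose C-terminal fragment is endostatin, rose by 0.65 and 0.69 (adjusted p = 0.00189 and 0.000815). Thbs1, thrombospondin-1, was the other that rose, and Thbs2 fell in WT kidneys. Col4a3, a chain of the glomerular basement membrane whose fragment is tumstatin, fell by 0.81 and 1.08 (adjusted p = 0.00999 and 0.00116).

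Of 13 hypoxia-inducible genes, a group in which Vegfa is usually counted, 1 rose and 1 fell in WT kidneys and 1 rose and 2 fell in IL-33-deficient kidneys, with median log2 fold changes of -0.02 and -0.08. Of all rows, 15.2% and 21.8% were called in these comparisons, so the list gave calls at about the share of the whole table. Hif1a itself rose by 0.27 and 0.43 (adjusted p = 0.0230 and 0.000869), and Car9, a carbonic anhydrase, fell by 0.31 and 0.18 (adjusted p = 0.00214 and 0.0433). Egln1, an oxygen-sensing hydroxylase, was the other that fell in IL-33-deficient kidneys. Slc2a1, named after its values were seen, had the largest log2 fold changes of the list, 0.57 and 0.52, and was called in neither genotype by limma (adjusted p = 0.0852 and 0.115). With both genotypes averaged its adjusted p was 0.0125. Markers of tubule cells, one source of Vegfa, also moved. Of 8 tubule markers, 3 fell in WT kidneys (Slc12a1, Slc12a3 and Aqp2) and 4 in IL-33-deficient kidneys (Slc12a1, Aqp2, Slc34a1 and Slc5a2). Slc12a1, the salt transporter of the thick ascending limb, had log2 fold changes of -3.12 and -3.13 (adjusted p = 0.00319 and 0.00223), and Aqp2, the collecting duct water channel, fell by 1.08 and 1.42 (adjusted p = 0.0231 and 0.00366). The summed intensity of the tubule markers was 38155 to 44003 in the controls, 19000 to 21955 in the IL-33-deficient UUO kidneys, and 19756 to 40747 with a median of 24209 in the WT UUO kidneys. Their part in the level of Vegfa was not tested.

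The study compared the genotypes after UUO, and here none of the 10 genes was called among the 12 UUO arrays. The contrast of the study held fewer WT arrays than the 7 used here, and the labels do not say which, so its thresholds are applied here to groups of another make-up. By those thresholds (a p under 0.05 together with an adjusted p below 0.25 and a 1.3-fold change) 0 of 10 passed, against 0.0110% of all rows, and at an adjusted p under 0.05 from limma 0 of 10 passed, against 0.00552% of all rows. The background share by the first rule rests on 2 rows and moved far with single arrays, to 309 rows without WT replicate 3819, 94 without IL-33-deficient replicate 3899, 31 without WT replicate 3820, 6 without WT replicate 3818 and 1 without any single one of the other 8, while 0 of 10 genes passed in each case. The one gene of the 10 with an unadjusted p under 0.05 was Tie1, and 10.3% of all rows (1874) lay under that p. The differences of IL-33-deficient minus WT kidneys ran from -0.14 for Tie1 to 0.11 for Icam1. Every 95% confidence interval lay between -0.32 and 0.43. For Flt1 the interval was -0.19 to 0.08, for Tek -0.21 to 0.13, for Vegfa -0.32 to 0.07, for Angpt2 -0.17 to 0.17 and for Icam1 -0.22 to 0.43, so that a modest difference of Icam1 would have been missed.

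Tie1 came nearest to a difference between the genotypes. The WT UUO kidneys averaged 7.45 ± 0.13 (SD, n = 7) and those without IL-33 7.31 ± 0.08 (SD, n = 5), and 4 of the 5 IL-33-deficient kidneys lay below all 7 WT kidneys. The adjusted p was 0.467, and a two-sided exact permutation test over all splits of the 12 arrays gave p = 0.0631. Within set 1 the difference was -0.13 and within set 2 -0.15. Within sets Icam1 also kept its sign (0.15 and 0.08), whereas Vegfa was -0.30 in set 1 and 0.01 in set 2 and Angpt2 0.24 and -0.17, with adjusted p of at least 0.480 for these 4 genes in either set.

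The response to UUO was compared between the genotypes by the interaction of genotype and obstruction. None of the 10 genes was called and none had an unadjusted p under 0.05 by limma, and 0% of all rows were called, with 860 rows at an unadjusted p under 0.05. The largest differences in response were 0.19 for Icam1 (95% confidence interval -0.40 to 0.78), 0.14 for Pecam1 (-0.09 to 0.38) and -0.14 for Vegfa (-0.50 to 0.21), and the lowest adjusted p was 0.973. In the controls, with 2 arrays in each group, no gene of the 10 was called or had an unadjusted p under 0.05, and 0% of all rows were called, with 664 rows at an unadjusted p under 0.05. Tek and Tie1 passed the test in IL-33-deficient kidneys alone, and their responses differed between the genotypes by -0.09 (95% confidence interval -0.40 to 0.22) and -0.11 (-0.35 to 0.14). None of the 83 other vessel genes was called between the genotypes after UUO by limma under either rule, and 9 (10.8%) had an unadjusted p under 0.05, close to the 10.3% of all rows, with a lowest adjusted p of 0.320. Of their responses to UUO none was called as different, and 3 had an unadjusted p under 0.05. Markers of mural cells, the pericytes and smooth muscle cells around vessels, had summed intensities of 2700 to 3521 in the WT UUO kidneys and 4044 to 4332 in the IL-33-deficient UUO kidneys. The study uses the proteins of Acta2 and Pdgfrb, both in this list, as markers of myofibroblasts, so the list is not particular to vessel walls. A sum weighs bright genes most, and Acta2 was the brightest, at means of 10.54 in WT and 11.2 in IL-33-deficient UUO kidneys. The median difference between the genotypes over the 9 markers was 0.17, and Rgs5, Myh11 and Notch3 differed by -0.03, 0.05 and 0.01. Of these 9 markers 6 had an unadjusted p under 0.05, against the same 10.3% of all rows, and Acta2 (smooth muscle actin) passed the thresholds of the study, at 0.67 higher (adjusted p = 0.233). Whether this bears on the endothelial genes was not tested.

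The genes whose values ran most like those of each of the 10 over the 16 arrays were listed by Pearson's r, which here largely carries the step between control and UUO kidneys and rests on arrays normalized together. For Icam1 these were Edn1 (r = 0.975) and Nfkbiz (r = 0.974), an NF-kB regulator induced by interleukin-1. For Vegfa they were Ccs (r = 0.982), the copper chaperone of superoxide dismutase, and Ndufv2 (r = 0.980), a subunit of mitochondrial complex I. Angpt2 ran most like Arrdc3 (r = 0.937) and Cyfip2 (r = 0.910), and Tek like Pcyt1a (r = 0.937) and the autophagy kinase Ulk1 (r = 0.934). Flt1 ran most like Abca9 (r = 0.934) and the corepressor Ncor1 (r = 0.926), and Tie1 like Dixdc1 (r = 0.875) and Rtn4rl1 (r = 0.866). Abca9 and Dixdc1 stood at or close to background, at mean log2 intensities of 7.07 and 6.95. No gene of the 10 was among the closest partners of another. For Pecam1 the highest r was 0.881, for Kdr 0.916, for Emcn 0.837 and for Sele 0.853, in genes that moved little between the groups.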

How the data were processed

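RNA of 16 mouse kidneys was amplified, labelled with biotin and hybridized to Illumina MouseRef-8 v2 BeadChips. The authors deposited linear intensities, 1 per gene symbol and array, for 18132 rows. The submitters' processing notes name BeadStudio 2, and the methods name the beadarray package for import. How background was corrected, how arrays were normalized and how several probes were joined is not given in the sources used here, and the table holds no detection p-values. No column of values was left out.

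Intensities were quantile-normalized between arrays and log2-transformed, and no row was filtered. Scale differences between arrays were small in the deposited table, so other scalings moved the median of all rows by at most 0.0045. Groups were fitted with limma 3.58.1 (lmFit and eBayes, R 4.3.3) in 1 model of 4 groups, or over the 12 UUO arrays for the comparison of genotypes, with Benjamini-Hochberg adjustment over all rows. The limma scripts were checked on simulated data. Calls were made at an adjusted p under 0.05, and for the genotypes also by the thresholds of the study (p 0.05, adjusted p 0.25, 1.3-fold). Python 3.11.15, numpy 2.4.6, pandas 2.3.3 and matplotlib 3.10.9 were used for counts and plots.

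The 10 genes and all gene lists were chosen with earlier results of these data known. Named by rule were Il33, the 10 genes, up to 3 risers and 3 fallers of each list called in both genotypes, and the 2 rows most like each of the 10. Any other listed gene, as those called in 1 genotype or in none, was named after its values were seen, also where the text does not say so. Of the marker lists computed, 1 is not reported here. A gene was called dim in a group when its mean lay under the 95th percentile of the odorant receptor rows. Symbols of 14303 rows and of all 10 genes matched RefSeq symbols, and loci and promoters are those of RefSeq on GRCm38.p6. The number of arrays, with 2 in each control group, limits the precision. Arrays were taken as separate kidneys by their labels, and p-values measure the spread between them.

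Alternatives were no further normalization, median centring, subtraction of the lowest intensity with an offset of 16, brighter rows only, a robust trended prior, array weights, the set of mice as a block or alone, an adjusted p under 0.01, and each array left out. Leaving out a control left 1 array in its group, assumed to vary like the other groups. The responses of both genotypes averaged were added after the data had been seen.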

Additional observations from a re-analysis of the deposited data

Results flagged for a closer look

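Among 22 groups of 5 or 7 kidneys searched, 10 genes and Il33 in each UUO group, 3 held a value far from the others by Dixon's criterion, which chance meets in about 5% of groups. IL-33-deficient UUO replicate 3821 read 9.49 for Flt1, against 9.37 for the nearest of the other 4 kidneys. The same kidney read 7.45 for Tie1, against 7.30 for the nearest. In both genes it lay on the side of the controls. WT UUO replicate 3818 read 8.39 for Il33, against 9.10 for the nearest of the other 6 kidneys, and it was also the lowest of its group for Icam1, at 9.54.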

How the results depend on the processing

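No paired analysis was possible because the groups share no replicate numbers. Under no alternative was any of the 10 genes called between the genotypes, in their responses or in the controls. By the thresholds of the study, the 2 rows passing between the genotypes after UUO were 127 with 4 groups in 1 model, 168 among brighter rows only, 81 with set 2, 80 with array weights, 0 with set 1, and 1 to 309 with single arrays left out. The number called after UUO in WT, 4 of 10, was 1 with the set 1 UUO kidneys alone and 2 to 6 with single arrays left out, and that in IL-33-deficient kidneys, 6 of 10, was 2 with set 1 alone and 2 to 6 with single arrays left out. The 13 other vessel genes called in both genotypes were 22 with array weights, 0 with set 1, 23 with set 2, and 3 to 18 with single arrays left out. Set 1 has 3 WT and 2 IL-33-deficient UUO kidneys against 4 and 3 in set 2. The labels give no set for the control mice, so a difference between sets cannot be told apart from the response to UUO here. Why set 1 gave fewer calls was not tested. Of all rows, 188 were called in WT and 2258 in IL-33-deficient kidneys with set 1 alone, against 2754 and 3955 with all arrays. With set 2 alone, 6 of the 10 genes were called in each genotype, beside 4241 and 4453 of all rows. Leaving out a single UUO array gave 2308 to 3578 of all rows in WT and 3573 to 4294 in IL-33-deficient kidneys. With set 1 alone the calls of Flt1, Vegfa and Icam1 were lost in WT kidneys, where only Angpt2 stayed called. Those of Flt1, Tek, Tie1 and Angpt2 were lost in IL-33-deficient kidneys, where Icam1 and Vegfa stayed called. At an adjusted p under 0.01 the call of Flt1 was lost in both genotypes and that of Tek in IL-33-deficient kidneys.

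Signs turned only in genes and comparisons that were not called. In WT after UUO, Pecam1 became 0.0094 with array weights and 0.052 with set 2, and Kdr 0.0022 with set 1. In IL-33-deficient kidneys with set 1, Emcn became 0.125 and Sele 0.022. Between the genotypes after UUO, set 2 alone gave Pecam1 -0.027, Kdr 0.027, Emcn -0.038, Vegfa 0.012 and Angpt2 -0.170, set 1 alone gave Sele 0.0123, array weights gave Pecam1 -0.00023 and Angpt2 -0.040, and the set as a block gave Angpt2 -0.00057. With single arrays left out the range that crossed 0 in WT was -0.058 to 0.0046 for Pecam1. In IL-33-deficient kidneys the ranges were -0.182 to 0.048 for Kdr, -0.192 to 0.098 for Emcn and -0.092 to 0.061 for Sele, and between the genotypes -0.095 to 0.0035 for Tek, -0.054 to 0.0127 for Sele and -0.039 to 0.044 for Angpt2. The causes were not tested.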
